A study of Mus musculus with 6 samples.

Results

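The genes described here are 10 imprinted genes with roles in growth: Peg3, Peg10, Mest, Plagl1, Grb10, Ndn, Sgce, Zrsr1, Impact and Snrpn. Their members on the array were all probe sets that the platform annotation ties to exactly 1 of these symbols, which gave 27 of 45037 probe sets. They stand for 9 of the 10 genes, of 18193 genes named on the array, since no probe set carried Zrsr1 alone. RNA was taken from 3 Dicer null and 3 Dicer heterozygous samples of mouse sarcoma cells of strain C57BL6/J, grown to confluence in DMEM with serum. Dicer is the ribonuclease that releases mature microRNAs from their precursors, so null cells lack the enzyme and heterozygous cells keep 1 intact copy. The labels give neither the tumours' driver mutations nor the part of Dicer1 that was deleted. Samples of a group are numbered as replicates and described as lines, and the labels do not say whether they came from separate tumours or cultures. The p-values therefore measure the spread between these samples, which may not be independent. For some genes the arrays of a group differed widely, as described below, and the source of that spread was not tested.

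An imprinted gene is transcribed mainly from the copy of 1 parent, because marks set in the germ line, often DNA methylation, differ between the parental copies. Many such genes act on fetal growth: paternally expressed ones often promote it and maternally expressed ones often restrain it, and a number of them are silenced after birth. Tumours can lose or gain their expression through changes at these marks.

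Values are log2 GCRMA values per probe set, and a difference is Dicer null minus Dicer heterozygous on that scale. Probe sets with a mean of at least 3 over the 6 arrays were tested with limma, and a call is a Benjamini-Hochberg adjusted p under 0.05 over all 24385 tested probe sets. The arrays' medians lay between 3.32 and 3.43. Dicer1 itself did not pass at either of its probe sets, with differences of 0.14 and 0.27 (limma adjusted p = 0.693 and 0.573), and probes outside the deleted part check nothing. Of 10 mesenchymal markers, 9 were tested, and their summed level was 15.34 to 15.67 in null and 15.62 to 16.01 in heterozygous arrays on the log2 scale. Thy1, a fibroblast surface marker, had a mean below 3 in these sarcoma cells. Of 5 markers each, 0 of the endothelial, 2 of the epithelial and 1 of the skeletal muscle lists reached the minimum, and of 4 leukocyte and 4 adipocyte markers on the array 1 each did. None of these was called by limma, and the smallest adjusted p among them was that of S100a4, a calcium-binding protein of fibroblasts (limma adjusted p = 0.0570).

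Several arrays stood apart from their group. For 24 proliferation genes, the median of the values relative to each gene's mean was 0.23, 0.55 and 0.15 in the null arrays and -0.07, 0.045 and -0.94 in the heterozygous arrays, so heterozygous replicate 3 was lowest. All 24 genes had positive differences between the groups, the median was 0.67 and 0 were called, with the smallest p for Cdc6, a replication licensing factor (limma adjusted p = 0.0570). Xist, the RNA that silences an X chromosome in female cells, stood at 9.82, 11.33 and 1.71 in the null arrays and at 11.34, 11.33 and 11.39 in the heterozygous arrays, so null replicate 3 was near background. Heterozygous replicate 1 had a value of 9.02 for Krt18, an epithelial keratin, where the other 5 arrays lay between 2.0 and 2.68. The rest of the epithelial list, Krt8, Epcam, Cdh1 and Krt14, stood at 2.96, 3.55, 3.2 and 2.34 in that array. Krt8 and Epcam were highest in null replicate 2, at 3.66 and 5.21.

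None of the imprinted growth regulators passed limma's test between the groups. Of the 27 probe sets 16 reached the minimum and were tested, and they stand for 8 genes. Calls numbered 0 of the 16 probe sets, where 3.1% of all tested probe sets were called, and 0 of the 8 genes, where 3.46% of all tested genes were. At an unadjusted p under 0.05 there were 2 probe sets of 16, against 23.2% of all tested probe sets, and 2 genes of 8, against 24.0% of all genes. Taking the brightest tested probe set of each gene, 5 of the 8 differences were positive and 3 negative. Their median was 0.20, against -0.01 over all 11425 tested genes. The median size without sign was 0.90, against 0.34 over all genes. Ndn, Plagl1 and Peg3, at -3.65, -1.003 and 0.79, had arrays far from the rest of their group, as described below. The differences of Plagl1 and Peg3 changed sign without 1 array. The plot of differences with their intervals shows the spread among probe sets.

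**Figure D1:**
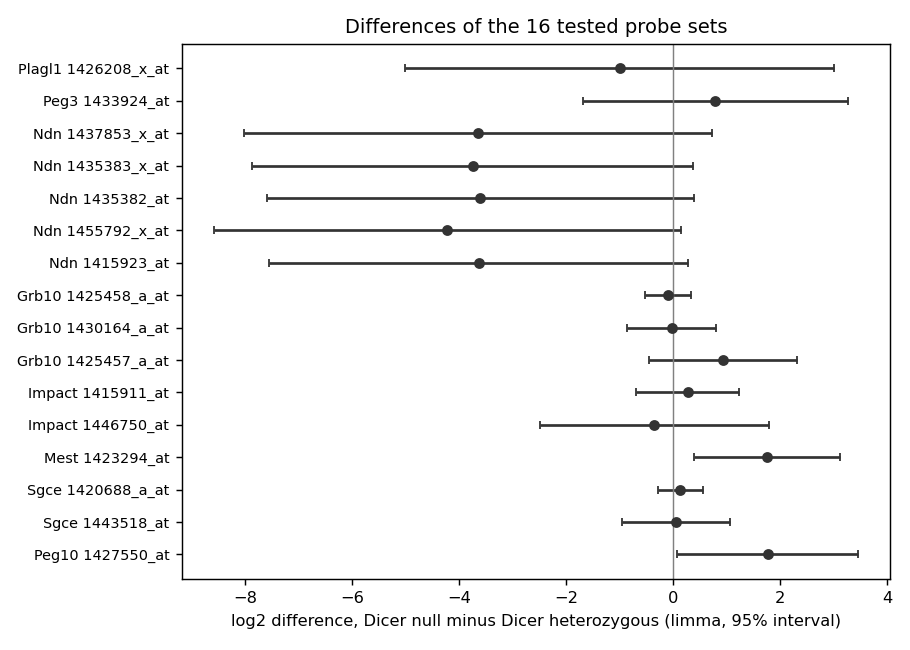
Log2 difference, Dicer null minus Dicer heterozygous, of the 16 tested probe sets with the 95% interval of limma's fit; the vertical line marks 0. The intervals of Grb10 and Sgce at their brightest probe sets are narrow and include 0, those of Ndn run from about -8 to just above 0, and only those of Mest and Peg10 lie above 0 before adjustment.

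The 11 probe sets that were not tested lay between 0.63 and 3.33 in all 6 arrays. Snrpn, which encodes a Sm protein of the splicing machinery found mainly in brain, had its single probe set among them, at 2.2, 2.13 and 2.17 in null arrays and 2.09, 2.13 and 2.06 in heterozygous arrays. A further 6 probe sets carry Snrpn together with a second symbol and were left out by the rule. Their values lay between 0.98 and 3.10. Also below the minimum were 4 of 5 probe sets of Peg3, 3 of 8 of Ndn, 2 of 3 of Plagl1 and 1 of 3 of Impact.

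The first genes are regulators of transcription and of the cell cycle: Plagl1, Peg3 and Ndn. Plagl1 encodes a zinc finger factor that restrains proliferation and in mouse binds other imprinted genes. Ndn encodes necdin, a MAGE family protein that holds neurons and other cells in a non-dividing state and binds E2f1. Peg3 encodes a large zinc finger protein linked to apoptosis and to growth in the mouse.

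Ndn was high in 5 arrays and near background in 1. Its brightest probe set, 1437853_x_at, stood at 9.58, 9.60 and 2.98 in null replicates 1, 2 and 3, against 10.98, 10.25 and 11.89 in the heterozygous arrays. Null replicate 3 lay far below the other null arrays, and all null arrays lay below all heterozygous ones. The other tested probe sets, 1435383_x_at, 1435382_at, 1455792_x_at and 1415923_at, put null replicate 3 between 1.80 and 2.93. Null replicates 1 and 2 lay between 7.46 and 9.17 in these sets, and the heterozygous arrays between 8.39 and 11.84. The probe sets 1435382_at and 1415923_at do not carry the x suffix, which marks probes shared with other sequences, and null replicate 3 was the lowest array in them too.

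In all 5 tested Ndn probe sets the null arrays lay below the heterozygous ones, as was the case for 14.6% of all tested probe sets, and these 5 share 1 gene. The mean of 1437853_x_at was 7.39 ± 3.82 in null and 11.04 ± 0.82 in heterozygous arrays (SD, n = 3 each). The difference was -3.65 (SE 1.81, 95% interval -8.03 to 0.72, limma adjusted p = 0.283). The differences of the 5 sets ran from -4.22 to -3.60, and none passed, with adjusted p of 0.228 to 0.283 in limma. Without null replicate 3 the difference of the brightest set was -1.45, which is 2.73-fold lower in null arrays (limma adjusted p = 0.259), against 12.6-fold with it. The spread within the null arrays was large: 0.0613% of all tested genes had an SD in null arrays at least as high as that of Ndn, Ndn included, and the median SD of all genes there was 0.231. The array with low Ndn was also the one with Xist near background, and the part of this in the Ndn value was not tested.

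The promoter of Ndn is shown because the gene was high in 5 arrays and near background in null replicate 3. The bases run from 250 before to 50 after the RefSeq start, on the plus strand at chr7:62348027-62348326 (GRCm38.p6). CpG dinucleotides, the letters CG, which read the same on both strands and are the sites that imprinting methylates, are in capitals.
Ndn promoter: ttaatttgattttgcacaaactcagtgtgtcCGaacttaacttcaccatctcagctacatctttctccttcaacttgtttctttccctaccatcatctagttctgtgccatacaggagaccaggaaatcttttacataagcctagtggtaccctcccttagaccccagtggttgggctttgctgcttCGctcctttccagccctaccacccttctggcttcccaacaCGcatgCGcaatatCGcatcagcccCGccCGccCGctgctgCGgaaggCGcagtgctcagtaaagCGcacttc
It holds 11 of them, and 41.4% of 32851 mouse promoters of the same length in this RefSeq table hold at least as many. The median was 7. The arrays measured no methylation.

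Ndn lies on chromosome 7 in a run of genes that also holds Magel2, Mkrn3 and Peg12, with Snrpn and Ube3a on the other side in the reference gene order. Peg12 and Mkrn3, chosen after their values were seen, were also lowest in null replicate 3. Peg12, a regulator of Wnt signalling related to Frat1, stood at 8.33, 7.81 and 3.01 in null arrays, against 8.32, 8.37 and 8.12 in heterozygous arrays. Its difference was -1.89 and did not pass (SE 1.36, limma adjusted p = 0.453). Mkrn3, a gene for a ring finger protein, stood at 4.04, 3.02 and 1.51 in null arrays and at 2.44, 1.98 and 2.08 in heterozygous arrays, and was not tested for its low mean. Magel2 lay between 1.62 and 2.23 in all arrays.

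Ube3a, a ubiquitin ligase that is imprinted in neurons only, did not share the low value at its brightest probe set. It stood at 11.32, 11.44 and 11.22 in null arrays and 11.38, 11.21 and 11.05 in heterozygous arrays. Among the 40 nearest named genes of Ndn, 18 were tested apart from imprinted ones. Their median difference was 0.11 and 0 of them were called. The differences ran from -3.98 to 1.12, so the lowest lay below that of Ndn itself. After each gene's mean and each array's median shift over all tested genes were subtracted, the median over these genes was -0.12, 0.38 and -0.145 in the null arrays and 0.04, 0.05 and -0.18 in the heterozygous arrays. Null replicate 3 lay within the range of the other arrays there, unlike its Ndn and Peg12 values.

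**Figure D2:**
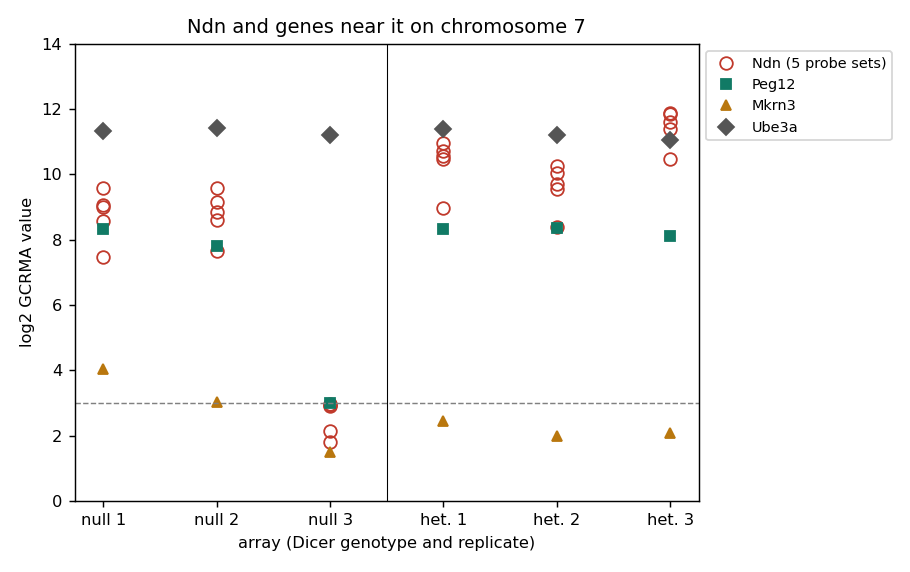
Log2 GCRMA value in each array of the 5 tested Ndn probe sets (open circles) and of Peg12, Mkrn3 and Ube3a, with null arrays left of the vertical line and heterozygous arrays right of it; the dashed line is the minimum mean of 3. In null replicate 3 the Ndn sets lie between 1.80 and 2.98 and Peg12 at 3.01, while Ube3a stays at 11.22.

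Neural markers were also compared, since Ndn is abundant in neurons. Of 9 neural markers 3 were tested and 0 were called, and 4 of them lay below 3 in all arrays. Their summed level was 7.52 to 8.37 in null and 7.58 to 9.73 in heterozygous arrays on the log2 scale. Map2, a microtubule protein of neurons, stood at 2.38, 6.31 and 1.39 in null arrays and at 5.98, 9.08 and 6.79 in heterozygous arrays. Stmn2, another neuronal microtubule regulator, stood at 2.43, 2.64 and 2.02 in null arrays and at 3.34, 4.27 and 8.14 in heterozygous arrays. Tubb3, a neuronal tubulin, stood at 8.2, 6.35 and 7.12 in null arrays and at 6.52, 8.05 and 5.59 in heterozygous arrays. Of these 3 tested markers 1 difference was positive and 2 were negative. The differences were -3.92 for Map2, -2.89 for Stmn2 and 0.50 for Tubb3 (limma adjusted p = 0.173, 0.215 and 0.721). Map2 and Stmn2 had an unadjusted p under 0.05 in limma, as had 24.0% of all tested genes, and were lowest in null replicate 3. Stmn2 lay below 3 in all null arrays, so its order among them is that of values near background. Tubb3 was lowest in heterozygous replicate 3. Of the untested ones, the neurofilament gene Nefl stood at 2.13, 6.93 and 2.35 in null arrays and at 1.97, 2.0 and 1.80 in heterozygous arrays. Snap25, of the synapse, had 4.01 in null replicate 3 and 1.74 to 2.27 in the other arrays, and Syt1 lay between 1.88 and 2.69. Gfap, Olig2 and Sox10, which define glial cells, lay between 1.52 and 2.37. The part of such cells or states in the Ndn values was not tested, and in these bulk samples fewer cells with a transcript and less of it per cell cannot be told apart.

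Plagl1 had high and low arrays within each group. Its tested probe set, 1426208_x_at, stood at 8.27, 8.60 and 4.11 in null arrays and 9.38, 9.57 and 5.04 in heterozygous arrays. Replicate 3 was low in both groups, so the groups overlapped. The difference was -1.003 (SE 1.66, 95% interval -5.02 to 3.01, limma adjusted p = 0.759). It was 0.44 without null replicate 3 and -2.48 without heterozygous replicate 3. Of all tested genes 0.429% had as high an SD in null arrays and 0.709% in heterozygous arrays. This set carries the x suffix. The other Plagl1 sets, whose means lay under 3, were also lowest in replicate 3 of each group: 1450533_a_at stood at 2.71, 2.85 and 2.30 in null and 3.17, 3.33 and 2.57 in heterozygous arrays. The array of heterozygous cells with low Plagl1 was the array with the lowest proliferation level, at -0.94. Null replicate 3 had the lowest proliferation level of the null arrays, at 0.15 against 0.23 and 0.55. It stood above every heterozygous array there. The part of proliferation in these values was not tested.

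The promoter of Plagl1 is shown as that of the other gene with arrays far below the rest. It lies on the plus strand at chr10:13090582-13090881 (GRCm38.p6, RefSeq), with CpG dinucleotides in capitals.
Plagl1 promoter: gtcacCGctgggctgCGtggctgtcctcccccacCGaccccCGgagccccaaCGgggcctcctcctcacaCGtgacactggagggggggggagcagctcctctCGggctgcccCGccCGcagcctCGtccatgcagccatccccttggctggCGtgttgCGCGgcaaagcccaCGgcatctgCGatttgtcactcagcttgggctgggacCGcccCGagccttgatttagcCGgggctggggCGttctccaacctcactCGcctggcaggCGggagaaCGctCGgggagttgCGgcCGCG
It holds 26 CpG dinucleotides, and 16.9% of the promoters hold at least as many.

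Peg3 was near background except in 1 null array. The probe set 1433924_at stood at 5.76, 2.93 and 1.78 in null arrays and at 3.32, 2.96 and 1.82 in heterozygous arrays. Null replicate 1 alone lay well above the rest. The difference was 0.79 (SE 1.02, limma adjusted p = 0.687), and it was -0.34 without null replicate 1. The other 4 probe sets of Peg3 stayed at or below 1.95 in every array, null replicate 1 included. Usp29 and Zim1, which lie beside Peg3 on chromosome 7, had values of 1.49 to 2.15 in all arrays.

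The next group holds genes that act on signalling. Grb10 encodes an adaptor that binds the insulin and insulin-like growth factor 1 receptors and dampens their signal. In most mouse tissues its maternal copy is the active one, and loss of it gives oversized fetuses. Impact encodes a protein that competes for Gcn1 and so limits activation of the kinase Gcn2 when amino acids are short.

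Grb10 had a narrow interval around 0 at its brightest probe set. The set 1425458_a_at stood at 12.00, 11.79 and 12.03 in null arrays and at 11.84, 12.06 and 12.21 in heterozygous arrays. The groups overlapped, and the difference was -0.10 (SE 0.18, limma adjusted p = 0.782), with a 95% interval of 0.696- to 1.26-fold. The set 1430164_a_at gave -0.02 (SE 0.34). The set 1425457_a_at stood at 5.02, 4.53 and 5.36 in null arrays and 2.90, 4.05 and 5.15 in heterozygous arrays, a difference of 0.94 (SE 0.57, limma adjusted p = 0.376). Heterozygous replicate 1 was the lowest of the 6 arrays, and without it the difference was 0.37.

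Grb14, a related adaptor of the insulin receptor, fell. It stood at 2.71, 3.44 and 2.88 in null arrays and at 7.82, 8.17 and 8.5 in heterozygous arrays, groups that did not overlap. Its difference was -5.15 (SE 0.275, limma adjusted p = 0.00407), and it was called without any 1 array as well. Of the 6 tested genes of growth factor signalling around Grb10, Grb14 was the only call, and the median difference was 0.22. Insr, Igf1r, Irs1, Irs2 and Nedd4 were the others tested and did not pass.

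Impact varied among the heterozygous arrays. Its set 1415911_at stood at 10.93, 11.33 and 10.55 in null arrays and at 10.96, 9.86 and 11.18 in heterozygous arrays. Heterozygous replicate 2 was the lowest of the 6. The difference was 0.27 (SE 0.40, 95% interval -0.69 to 1.24, limma adjusted p = 0.727) and -0.13 without that array. The set 1446750_at stood at 5.92, 6.67 and 6.52 in null arrays and at 6.93, 4.78 and 8.46 in heterozygous arrays, with heterozygous replicate 2 again lowest, and its difference was -0.35 (SE 0.88). Of 8 tested genes of the Gcn2 stress response, 0 were called, 2 differences were positive and 6 negative, and the median was -0.12. Sesn2, a stress protein that restrains growth, had the smallest p, with a difference of 0.65 (limma adjusted p = 0.291).

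The third group holds structural, enzymatic and retrotransposon-derived genes: Mest, Sgce and Peg10, which all lie on chromosome 6. Mest encodes a membrane protein of the alpha/beta hydrolase family that promotes fetal growth and fat cell enlargement in mouse. Sgce encodes epsilon-sarcoglycan, part of a membrane complex linked to dystroglycan. Peg10 derives from a retrotransposon and is needed for the mouse placenta.

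Mest had the smallest p of the 8 genes but was not called. Its probe set 1423294_at stood at 11.29, 9.62 and 9.47 in null arrays, against 7.67, 8.64 and 8.82 in heterozygous arrays. All null arrays lay above all heterozygous ones, and null replicate 1 and heterozygous replicate 1 lay farthest apart. The means were 10.13 ± 1.01 in null and 8.38 ± 0.62 in heterozygous arrays (SD, n = 3 each). The difference was 1.75 (SE 0.56, 95% interval 0.38 to 3.12), or 3.36-fold, with an unadjusted p of 0.0199 and an adjusted p of 0.139 in limma. Without 1 array it ran from 1.17 (null replicate 1) to 2.08 (null replicate 3).

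The Mest gene contains the precursor of miR-335, whose release needs Dicer. Both mature arms are shown with the seed, bases 2 to 8, in capitals (RefSeq, GRCm38.p6, plus strand, chr6:30741314-30741336 and chr6:30741354-30741375).
mmu-miR-335-5p: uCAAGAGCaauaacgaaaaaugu
mmu-miR-335-3p: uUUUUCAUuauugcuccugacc
In the RefSeq table each seed occurs in 1 mature mouse microRNA only, so these arms form no family there. The arrays measured the host transcript and not the microRNA. The promoter of Mest with more CpG dinucleotides follows, since the gene's null and heterozygous arrays did not overlap (chr6:30737800-30738099, plus strand, GRCm38.p6, CpG in capitals).
Mest promoter: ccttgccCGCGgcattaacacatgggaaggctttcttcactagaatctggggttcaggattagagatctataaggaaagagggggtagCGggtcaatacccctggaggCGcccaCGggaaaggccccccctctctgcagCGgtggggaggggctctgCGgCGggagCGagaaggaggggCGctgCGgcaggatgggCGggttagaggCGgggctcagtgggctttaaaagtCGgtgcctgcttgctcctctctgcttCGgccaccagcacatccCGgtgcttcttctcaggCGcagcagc
It holds 17 CpG dinucleotides, and 31.4% of the promoters hold at least as many. The upstream Mest start in the table has 8.

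As Mest had the smallest p of the 8 genes, the genes most like it were sought. Those whose values followed Mest most closely over the 6 arrays were Srgap1 and Pcolce, an enhancer of procollagen processing. Their Pearson correlations with Mest were 0.995 and 0.990 over 6 arrays, which is a description, and 17 of 11425 genes reached 0.95. Srgap1 stood at 6.69, 4.43 and 4.37 in null arrays and 2.37, 3.69 and 3.73 in heterozygous arrays. Copg2, the gene next to Mest, had a difference of 0.02 (SE 0.29). Of the 40 nearest named genes 25 were tested, with a median difference of 0.08 and 0 calls. Their differences ran from -1.02 to 2.46, so the highest lay above that of Mest itself. Of 5 tested genes of fat cells and Wnt reception tied to Mest, 0 were called and the median was -0.05, with Cav1 the smallest p at 0.35 (limma adjusted p = 0.211).

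Peg10 was likewise higher in each null array. Its set 1427550_at stood at 6.73, 7.09 and 7.30 in null arrays and at 3.60, 5.99 and 6.23 in heterozygous arrays. Heterozygous replicate 1 was the lowest by far, and the groups did not overlap. The difference was 1.77 (SE 0.70, 95% interval 0.08 to 3.46, unadjusted p = 0.0430, adjusted p = 0.200 in limma), or 3.40-fold. Without heterozygous replicate 1 it was 0.93, or 1.91-fold (limma adjusted p = 0.112). That array was also the one with high Krt18, while Krt8 and Epcam were highest in null replicate 2. The part of such differences in the Peg10 value was not tested. Mest and Peg10 were the 2 of 8 genes with all null arrays above, which held for 14.9% of all tested genes and 16.3% of all tested probe sets. Ndn was the 1 gene with all below, which held for 17.3% of all tested genes.

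Sgce, which lies next to Peg10 and is transcribed away from it, also had a narrow interval around 0. Its set 1420688_a_at stood at 10.59, 10.63 and 10.83 in null arrays and at 10.48, 10.41 and 10.76 in heterozygous arrays. The difference was 0.13 (SE 0.18, limma adjusted p = 0.692), with a 95% interval of 0.818- to 1.47-fold. The set 1443518_at differed by 0.05 (SE 0.42) and stood highest in replicate 3 of each group. Whether Peg10 and Sgce differed from each other in their change was not tested.

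Further imprinted genes near Peg10 and Sgce are Casd1, Ppp1r9a, Pon3 and Pon2. Pon2, a paraoxonase that protects membranes from oxidation, rose. It stood at 9.93, 10.09 and 9.96 in null arrays and at 9.27, 9.05 and 9.15 in heterozygous arrays, a difference of 0.84 (SE 0.155, limma adjusted p = 0.0481). In each of the 6 fits without 1 array this brightest set, 1429019_s_at, was no longer called, with differences of 0.78 to 0.89. The Pon2 set 1450686_at was also called, at 1.14 (SE 0.166, limma adjusted p = 0.0294). The set 1429020_at gave 1.40 and was not called (SE 0.312, limma adjusted p = 0.0677). Casd1, Ppp1r9a and Pon3 differed by 0.27, 0.30 and 0.29 and did not pass. Among the other tested neighbours of Peg10, 17 in number with a median of 0.21, Slc25a13, a mitochondrial aspartate-glutamate carrier, rose by 1.66 on the log2 scale. Pdk4, a kinase that restrains pyruvate oxidation, fell by 8.46, and the remaining 15 were not called.

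**Figure D3:**
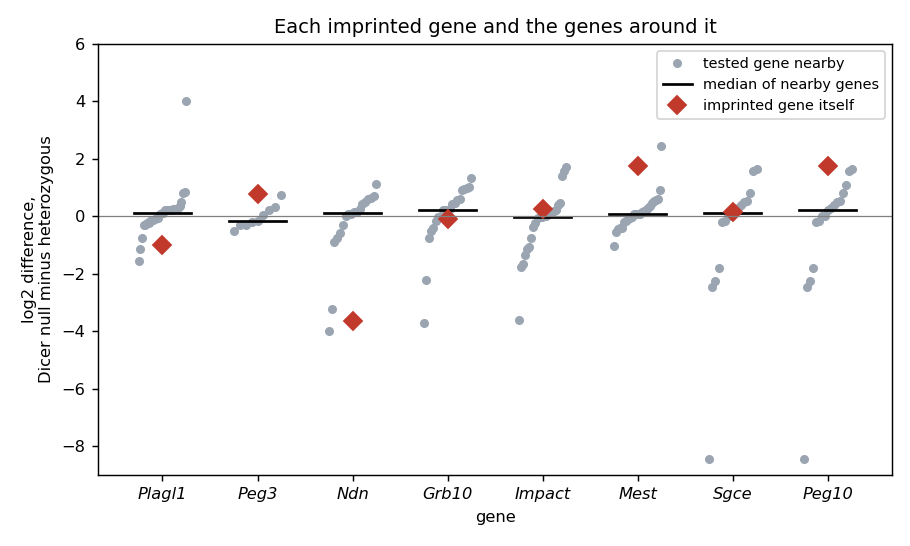
Log2 difference, Dicer null minus Dicer heterozygous, of each imprinted gene (red diamond, brightest tested probe set) and of the tested genes among up to 20 named genes on either side (grey points, black line at their median), imprinted genes left out. The medians of the nearby genes lie between -0.17 and 0.22, while Mest and Peg10 lie at 1.75 and 1.77 and Ndn at -3.65. Single nearby genes reach as far or farther: they run from -3.98 to 1.12 around Ndn, from -1.02 to 2.46 around Mest and from -8.46 to 1.66 around Peg10.

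Of the sarcoglycan and dystrophin-linked genes around Sgce, 5 were tested and 0 were called by limma. An unadjusted p under 0.05 was found for 3 of the 5, against 24.0% of all tested genes. All 5 differences were negative, with a median of -2.29, against -0.01 over all tested genes, and the groups overlapped for Dag1, Sgcb and Sgcd. Sspn, which encodes sarcospan, stood at 7.33, 6.37 and 3.98 in null arrays and 10.15, 10.03 and 10.59 in heterozygous arrays, and it just missed the threshold (difference -4.36, SE 0.82, limma adjusted p = 0.05005). Null replicate 3 was the lowest there too. Of the other lists, 8 tested splicing genes related to Snrpn and Zrsr1 had a median of 0.12 and 0 calls, with the smallest p for U2af2 (0.36, limma adjusted p = 0.335). The 5 tested partners of Peg3, Ndn and Plagl1 had a median of -0.16 and 0 calls, with the smallest p for Cdkn1a (-0.93, limma adjusted p = 0.384). Of 8 retrotransposon-derived genes on the array besides Peg10, only Arc was tested, at 0.25 (limma adjusted p = 0.716).

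**Figure D4:**
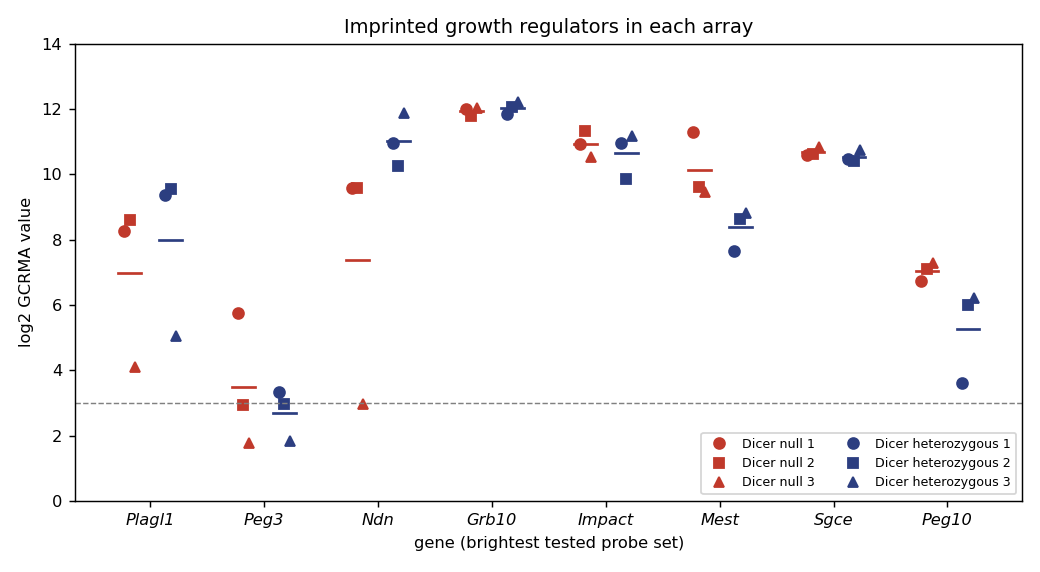
Log2 GCRMA value of the brightest tested probe set of 8 imprinted genes in each array, null arrays (red) left of heterozygous arrays (blue), with symbols for replicate number, bars for group means and a dashed line at the minimum mean of 3. Ndn in null replicate 3 and Plagl1 in replicate 3 of both groups lie far below the other arrays, while Grb10 and Sgce show little spread.

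Imprinted genes outside the 10 were compared as a list of 65 symbols, of which 57 were on the array and 33 were tested. Of these 3 rose and 0 fell, where 1.45% of all tested genes rose and 2.0% fell by the same test. An unadjusted p under 0.05 was found for 11 of the 33, against 24.0% of all tested genes. Of the differences 23 were positive and 10 negative. Their median was 0.29, against -0.01 over all tested genes. Besides Pon2, the calls were long noncoding RNAs that silence imprinted domains in mouse. Kcnq1ot1 had means of 7.36 ± 0.81 in null and 2.31 ± 1.40 in heterozygous arrays (SD, n = 3 each; limma adjusted p = 0.0320), and its other 3 tested probe sets were called in the same direction. Airn stood at 7.69, 7.51 and 7.93 in null arrays and at 6.03, 6.37 and 6.52 in heterozygous arrays, with a difference of 1.403 (SE 0.207, limma adjusted p = 0.0305). The other 4 tested Airn probe sets gave 0.20 to 0.65 with overlapping groups, and none was called. Among the 6 fits without 1 array, Kcnq1ot1 was called only without heterozygous replicate 1 and Airn only without heterozygous replicate 3.

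Igf2r, which Airn silences on the paternal copy in mouse, stood at 11.40, 9.57 and 11.53 in null arrays and at 10.63, 10.55 and 11.05 in heterozygous arrays, and did not pass (difference 0.09, limma adjusted p = 0.942). Commd1, whose intron holds Zrsr1 in mouse, stood at 11.69, 11.60 and 11.32 in null arrays and 11.92, 11.92 and 12.04 in heterozygous arrays. Its groups did not overlap, and the difference of -0.42 did not pass (SE 0.17, limma adjusted p = 0.205). Of 11 tested genes that set or keep imprints, 0 were called, 8 differences were positive and 3 negative, and the median was 0.33. Setdb1, a histone methyltransferase, had the smallest p, with a difference of 0.90 (SE 0.21, limma adjusted p = 0.0754).

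**Figure D5:**
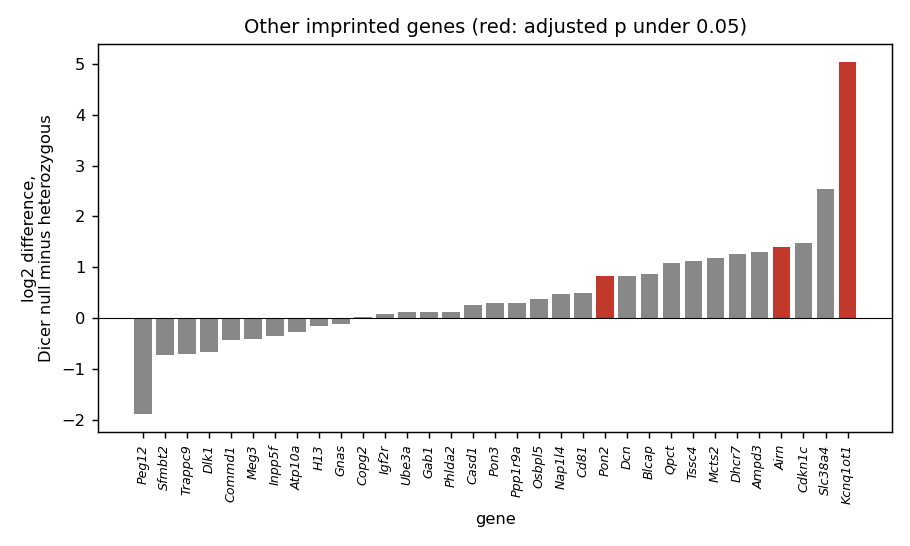
Log2 difference, Dicer null minus Dicer heterozygous, of the 33 tested imprinted genes outside the 10, in rising order, with called genes in red. Kcnq1ot1 has the highest bar at 5.04, Peg12 the lowest at -1.89, and the called genes are Kcnq1ot1, Airn and Pon2.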

How the data were processed

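RNA of 6 samples, 3 Dicer null and 3 Dicer heterozygous by their titles, was measured on Affymetrix 3′ arrays. The authors deposited log2 values per probe set, between 0.40 and 14.18. The submitters' processing notes name R 2.11.1 and GCRMA 2.20.0, a method that adjusts probes for nonspecific binding, makes the arrays' distributions equal and combines the probes of a set. No source used here gives its settings, and the log2 scale was read from the values. Background correction leaves unexpressed probe sets at low values, and the equal distributions remove any overall shift in RNA amount.

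Gene symbols came from the platform annotation (34945 with 1 symbol, 932 with several, 9160 with none). Probe sets with a mean of at least 3 over the arrays were tested with limma 3.58.1 in R 4.3.3 (lmFit, eBayes, two-sided, Benjamini-Hochberg at 0.05 over all tested). Each gene was represented by the brightest of its tested probe sets. The 10 genes, the other lists and the alternatives were chosen with earlier results of these data known. All 10 genes are named, and of each list other than the cell type markers the called members or else the one with the smallest p. All named cell type markers, the called neighbours, Xist, Dicer1, Mageh1, Slc38a4, Insr, Igf1r, Irs1, Irs2, Nedd4, Dag1, Sgcb, Sgcd, Peg12, Mkrn3, Magel2, Ube3a, Usp29, Zim1, Copg2, Casd1, Ppp1r9a, Pon3, Igf2r and Commd1 fall outside that rule. Neighbours were up to 20 named protein-coding genes on either side (40 in all, but 33 for Peg10 and 32 for Sgce, near a chromosome end) in the GRCm38.p6 gene table, whose coordinates are printed only with sequences. The fit was tested on simulated data. Correlations between arrays were 0.972 to 0.979 within null, 0.935 to 0.973 within heterozygous and 0.910 to 0.955 between groups. Promoters were found for 7 of the 10 genes. The number of arrays limits the precision. Figures were drawn with matplotlib 3.10.9.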

Additional observations from a re-analysis of the deposited data

How the results depend on the processing

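Of 301 alternative values for the 16 tested probe sets, 285 kept their direction and stayed uncalled, 13 changed sign without being called and 3 became called. Calls numbered 0 for the probe sets and genes of the 10 in all alternatives except limma's default array weights. There 3 of 16 probe sets (Mest, Impact 1415911_at and Grb10 1425457_a_at) and 2 of 8 genes were called. In the same setting 6875 of all 24385 tested probe sets were called. Other filters changed the number tested to between 14 and 27 probe sets and 7 to 9 genes. Over all probe sets the 756 calls became 0 with ordinary t statistics, where 4873 had an unadjusted p under 0.05 by the ordinary t-test. They became 6875 and 2949 with default and gene-by-gene array weights, and 45 to 857 without 1 array. The 3 other imprinted genes called became 0 with ordinary t statistics, where 11 had an unadjusted p under 0.05 by the ordinary t-test. They became 14 and 7 with the array weights, and 0 to 2 without 1 array. Same-numbered arrays' deviations from their group means correlated at -0.06, 0.11 and 0.24, so the numbers were not taken to pair samples. With the replicate number as a replicate block there were 116 calls over all probe sets and 0 among the other imprinted genes. The block left the 10 genes uncalled, and Plagl1 had its lowest adjusted p there (-1.003, limma adjusted p = 0.0808).

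Without 1 array the differences that changed sign ran from -0.345 to 1.645 (Peg3 1433924_at), -2.482 to 0.438 (Plagl1 1426208_x_at), -0.35 to 0.22 (Grb10 1430164_a_at), -0.197 to 0.463 (Sgce 1443518_at), -0.133 to 0.527 (Impact 1415911_at) and -1.325 to 0.515 (Impact 1446750_at). Grb10 1430164_a_at was 0.002 after repeated quantile normalization, and Impact 1446750_at was 1.393 and 0.855 with the array weights. Fits without 1 array also have fewer samples, and the cause of their changed call counts was not tested. Signal near background limits Peg3 and Snrpn.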

Other observations

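Mageh1, another gene of the MAGE family to which Ndn belongs, was singled out after its values were seen. It stood at 7.60, 7.79 and 2.55 in null arrays and at 8.53, 8.76 and 9.15 in heterozygous arrays, so null replicate 3 was again far below the rest. The Pearson correlation of Mageh1 with Ndn over the 6 arrays was 0.992, and 33 genes reached 0.95. Null replicate 3 was also the array with Xist near background, and the part of this in the Mageh1 value was not tested. Slc38a4, an amino acid transporter that is imprinted in mouse, stood at 8.14, 7.5 and 8.23 in null arrays and at 6.90, 5.02 and 4.31 in heterozygous arrays. Its difference of 2.55 (SE 0.66) missed the threshold, with a limma adjusted p of 0.0921.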
